A study of Mus musculus with 4 samples.

Results

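Amphiregulin (Areg), heparin-binding EGF-like growth factor (Hbegf) and epiregulin (Ereg) are ligands of the epidermal growth factor (EGF) receptor, and Egfr encodes that receptor. These 4 genes, of 32285 in each matrix, are described here across the cell types of a mouse tumour, one cell barcode at a time. They were chosen from earlier results of the same data, in which Areg differed between CD4 T cells of the libraries. Their levels are therefore given as a description, and nothing is tested with them.

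The Tc9 group were wild-type B6 mice (Thy1.2+) with a chimeric tumour that had been given Thy1.1+ Pmel-1 Tc9 cells together with an adjuvant. The Tc1 group were the same kind of mice, with the same kind of tumour and adjuvant, given Pmel-1 Tc1 cells. Pmel-1 cells are CD8 T cells with a transgenic receptor for the melanocyte protein gp100, and Tc9 and Tc1 are CD8 T cells cultured towards IL-9 or interferon-γ production. What makes the tumour chimeric is not given in the sources used here. Tumours of 3 mice per group were pooled on day 30 after inoculation, and the cells sorted as CD4 T cells gave 1 RNA library and 1 T cell receptor library per group. With 1 library per group there is no measure of the spread between mice, so no difference below has a test. Intervals are 95% limits of counting error, and since UMIs (unique molecular identifiers, each counting 1 captured transcript) of a cell are not independent, they are too narrow for the intervals on levels and ratios.

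EGF family ligands are made as membrane-bound precursors, and proteases such as ADAM17 shed their active part. The ligands bind EGFR, a receptor tyrosine kinase that signals through the ERK cascade and induces its own inhibitors. Areg is a low-affinity ligand known from wound repair, where regulatory T cells, which carry the transcription factor Foxp3, and type 2 lymphocytes are among its sources. Hbegf and Ereg bind the same receptor and are better known from epithelium, macrophages and stroma.

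Areg (ENSMUSG00000029378) lies at chr5:91139599-91148432 and Ereg (ENSMUSG00000029377) at chr5:91074617-91093649 of GRCm38. Egfr (ENSMUSG00000020122) lies at chr11:16752203-16913907. The promoter of Areg, the gene that carries most of the results, is shown from 250 bases before to 50 bases after the transcription start, which is chr5:91139349-91139648 on the plus strand of GRCm38.p6, taken from RefSeq. Capitals mark TGACGTCA, the palindromic cAMP response element, and TATAAA, the motif bound by the TATA-binding protein.
Areg promoter: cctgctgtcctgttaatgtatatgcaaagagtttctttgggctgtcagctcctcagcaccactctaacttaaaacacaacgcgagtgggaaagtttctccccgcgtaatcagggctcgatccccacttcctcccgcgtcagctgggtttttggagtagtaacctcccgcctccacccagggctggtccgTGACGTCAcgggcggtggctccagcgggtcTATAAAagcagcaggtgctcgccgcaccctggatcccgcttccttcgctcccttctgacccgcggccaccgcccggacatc
The TGACGTCA motif begins 61 bases and the TATAAA motif 31 bases before the start. TGACGTCA (a palindrome, so 1 search covers both strands) occurred in 1.79% and TATAAA (plus strand) in 13.6% of 32851 promoters of this length from 27025 genes, and both together in 0.170%. Of the 4 genes, 2 had a promoter entry, and the Egfr promoter held neither motif in this window. A match is a description of the letters, and binding was not measured.

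The libraries differed in what the sort had let through. After filtering, 8204 barcodes of the Tc9 library and 11933 of the Tc1 library were kept, with medians of 5256.5 and 5404 UMIs, from 50713493 and 106053410 UMIs deposited. Gates on marker UMIs put 13.6% of Tc9 barcodes and 2.18% of Tc1 barcodes in the Foxp3 gate, and 44.7% and 9.06% in the gate of other CD4 T cells. Macrophages made up 0.488% of Tc9 and 17.8% of Tc1 barcodes, although the label is sorted CD4 T cells. The gates left out 12.2% of Tc9 and 39.6% of Tc1 barcodes, whose markers conflicted or were too few. Of barcodes with a Foxp3 UMI, the Foxp3 gate took 1116 of 1360 in Tc9 and 260 of 552 in Tc1. In Tc1, 138 of those it missed had T markers beside markers of another type. Gate shares are thus not cell composition. In the Foxp3 gate the summed level of 7 macrophage markers was 8.52 CPM (UMIs per 1000000 UMIs of the gate) in Tc9 and 228 CPM in Tc1, with all 7 markers detected in both. The 5 melanoma markers summed to 2.63 CPM in Tc9 (3 detected, Tyrp1 and Tyr at 0) and 54.2 CPM in Tc1 (all 5 detected). In the other CD4 gate macrophage markers summed to 6.82 CPM in Tc9 and 227 CPM in Tc1, and melanoma markers to 1.91 and 86.7 CPM. T cells with neither Cd4 nor Cd8 UMIs had 7.34 CPM of macrophage markers in Tc9 and 228 CPM in Tc1, and the CD8 gate 3.86 and 157 CPM. Melanoma markers there summed to 1.60 CPM in Tc9 and 107 CPM in Tc1, and to 0.965 and 54.1 CPM in the CD8 gate. Macrophage and melanoma RNA thus moved with the group in all 4 T cell gates, and their part in the comparisons below was not tested. The libraries shared 127 barcode sequences.

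Areg was by far the most abundant of the 4 transcripts, and most of its gated UMIs lay in T cell gates in both libraries. The Tc9 library held 24272 Areg UMIs in 2211 barcodes, and the Tc1 library 3732 UMIs in 536 barcodes. Hbegf had 259 UMIs in Tc9 and 868 in Tc1, Ereg 4 and 65, and Egfr 274 and 284. Foxp3 gate barcodes held 38.2% of all Areg UMIs of Tc9 and 23.8% of those of Tc1. They held 82.3% of the Foxp3 UMIs of Tc9 but 49.9% of those of Tc1, so the gate caught less of that population in Tc1. The other CD4 gate held 26.9% in Tc9 and 7.80% in Tc1, T cells without Cd4 or Cd8 14.8% and 5.95%, and CD8 cells 2.41% and 1.58%. Barcodes outside every gate held 17.5% in Tc9 and 51.6% in Tc1.

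Foxp3 cells held the highest Areg level of the gates, which stood at 1162 CPM (1138 to 1186) in Tc9, from 9269 UMIs in 1116 barcodes. It stood at 402 CPM (376 to 429) in Tc1, from 890 UMIs in 260 barcodes. The log2 ratio of Tc9 over Tc1 was 1.53 (1.43 to 1.63), a 2.89-fold difference. Of the 4 genes Areg alone reached the 10 CPM in a library that counted as measured, and it passed the 1.5-fold size rule upward, as did 17.7% of the 8565 genes measured in that gate, while 24% passed downward. The lower Tc1 level rested on few cells, since 71.3% of its UMIs came from the 24 barcodes with 10 or more Areg UMIs.

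Shares of Areg-positive cells were compared after every barcode had been thinned at random to 2000 UMIs, so that depth could not set them. Among Foxp3 cells 49.3% of 1092 Tc9 barcodes (46.3 to 52.3%) and 27.2% of 254 Tc1 barcodes (21.8 to 33.1%) held Areg, a difference of 22.1 percentage points (15.5 to 28.3). Without thinning, at median depths of 5813.5 UMIs in Tc9 and 5565 UMIs in Tc1, the shares were 61.2% and 40.8%. For comparison, NK cells had Areg in 0 of 55 thinned Tc9 barcodes (0 to 6.49%) and 0 of 31 thinned Tc1 barcodes (0 to 11.2%). Their median depths were 7608 UMIs in Tc9 and 4699 UMIs in Tc1. Melanoma barcodes of Tc1 (median 56025 UMIs) had it in 1 of 220 thinned barcodes, or 0.455%. All gates outside the T lineage together stood at 2.60% in Tc9 and 0.947% in Tc1. Both Foxp3 gates were above these levels, and above the upper limits for NK cells.

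Free RNA of lysed cells can also put Areg UMIs into droplets, and the Tc9 library held more Areg to begin with. An estimate from the UMIs of the myeloid gene Lyz2 in each gate expected 75.7 CPM of free Areg in the Foxp3 gate of Tc9 and 11.5 CPM in that of Tc1. It expected 95.3 CPM in Tc9 and 8.44 CPM in Tc1 for other CD4 cells, 181 and 8.92 CPM for T cells without Cd4 or Cd8, and 154 and 5.16 CPM for CD8 cells. Spread evenly at 2000 UMIs, these Tc9 levels would give an Areg UMI to 14.1% of Foxp3, 17.4% of other CD4, 30.4% of T cells without Cd4 or Cd8 and 26.6% of CD8 barcodes. The same estimate expected 37.9 CPM in Tc9 NK cells and 54.0 CPM in Tc9 fibroblasts, where 6.40 and 13.7 CPM were found, so it was above the level measured in those gates. It rested there on 1 Lyz2 UMI in NK cells and 2 in fibroblasts, so those expected levels are loose. In the Tc1 Foxp3 gate 26 of 260 barcodes held 89.2% of the Lyz2 UMIs, so the estimate there rested on few barcodes. Outside the Foxp3 gate the Tc9 shares given below are under the even spread and above the 2.60% of the gates outside the T lineage, and how much of them is free RNA was not settled by these values.

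The other CD4 gate had less Areg than the Foxp3 gate in both libraries and a wider gap between the groups as a ratio, though a narrower one in share points. Its level was 297 CPM (290 to 304) in Tc9 and 59.8 CPM (53.1 to 67.1) in Tc1, a log2 ratio of 2.31 (2.14 to 2.49). Of the 4 genes only Areg was measured here and passed upward, against 6.83% of the 8261 measured genes, while 20.4% passed downward. These were 564 genes higher and 1684 lower, and 926 higher and 1185 lower when the ratios were scaled by the median gene (-0.15), under which the Areg ratio was 2.46. At 2000 UMIs a barcode, 14.3% of Tc9 barcodes and 3.74% of Tc1 barcodes were positive, a difference of 10.5 points (8.76 to 12.1), against 22.1 points in the Foxp3 gate. The Tc1 level rested on 10 barcodes with 10 or more UMIs, which held 66.3% of the gate's Areg. Without the top 1% of barcodes of each gate the log2 ratio was 3.37, so a few Areg-rich Tc1 cells narrowed the ratio of summed levels.

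T cells with neither Cd4 nor Cd8 UMIs followed the other CD4 gate in Tc9 and in Tc1. Their Areg level was 382 CPM in Tc9 and 46.6 CPM in Tc1 (log2 ratio 3.03), and the thinned shares were 15.2% and 2.36%. Only Areg of the 4 genes was measured there, and it passed upward, as did 8.94% of measured genes, while 21% passed downward. In the CD8 gate Areg reached 282 CPM (259 to 306) in the 210 Tc9 barcodes and 3.53 CPM (2.69 to 4.56) in the 1944 Tc1 barcodes. That is a log2 ratio of 6.32 (5.93 to 6.73), and 15.1% of genes measured in this gate passed upward and 25.9% downward. The gate differed in make-up, since 138 of the 210 Tc9 and 39 of the 1944 Tc1 barcodes carried the same receptor β chain (below). Barcodes with that chain stood at 291 CPM of Areg in Tc9 and 1.31 CPM in Tc1. Those with another β chain (16 and 1460 thinned barcodes) stood at 321 and 4.34 CPM. Thinned, 12.9% of Tc9 CD8 barcodes and 0.419% of Tc1 CD8 barcodes held Areg. The Tc1 share was below the 0.947% of that library's gates outside the T lineage, so no expression is read from it. One Tc1 CD8 barcode held 35 of the gate's 59 UMIs, and the gates outside the T lineage included 11 barcodes with 10 or more. The size of the CD8 ratio followed the gate limits, from 5.32 with every limit doubled to 7.82 for barcodes that also clustered with their own gate.

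**Figure D1:**
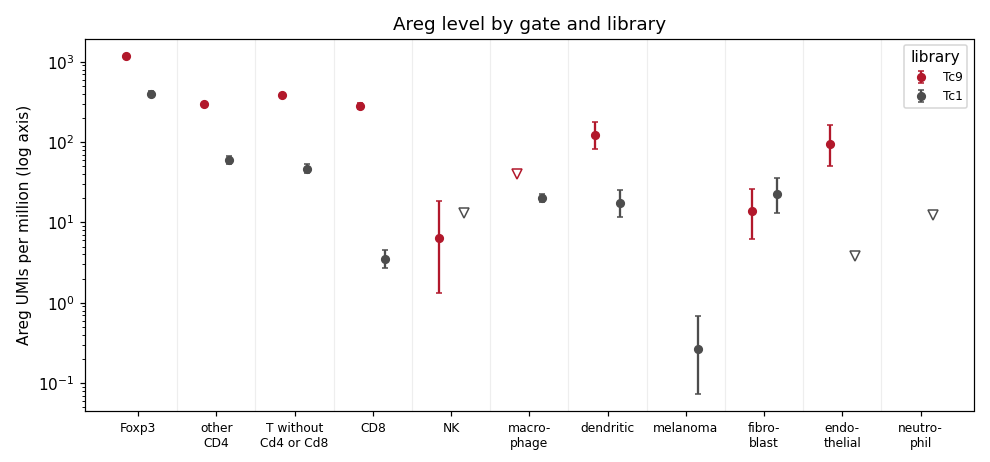
Areg level (CPM, log axis) by gate, with Tc9 left of Tc1 in each gate; points are summed UMIs over the gate's summed total, bars are 95% Poisson intervals, and hollow triangles mark the level of 3 counts where no UMI was found. The Foxp3 gate is highest in both libraries, at 1162 CPM in Tc9 and 402 CPM in Tc1, and gates with fewer than 10 barcodes are not drawn.

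Outside the T lineage Areg was sparse. NK barcodes held 3 UMIs, all in 1 of 57 barcodes, in Tc9 and 0 in 34 barcodes in Tc1. Macrophages held 0 UMIs in 40 Tc9 barcodes, which allows up to 39.6 CPM at 3 counts, and these barcodes were shallow, with a median of 1671.5 UMIs. The 2130 Tc1 macrophages held 296 UMIs (20.2 CPM) in 35 barcodes, and 96 of the 2130 barcodes carried a T cell receptor β chain in the receptor library. Thinned, 1.11% of Tc1 macrophages were positive.

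Dendritic cells had 29 Areg UMIs in 3 of 32 Tc9 barcodes (124 CPM) and 28 UMIs in 4 of 131 Tc1 barcodes (17.6 CPM), too few cells for a level. In the Tc1 library 25 dendritic UMIs came from 1 barcode. Areg passed the size rule upward in this gate, where 36.4% of measured genes did and 22.5% passed downward. Fibroblasts had 9 UMIs in Tc9 (13.7 CPM) and 18 UMIs in Tc1 (22.3 CPM). The endothelial gate had 13 UMIs, all in 1 barcode, in Tc9 and 0 UMIs in 37 barcodes in Tc1. Melanoma barcodes, found in Tc1 only, had 4 UMIs in 267 barcodes (0.268 CPM), and neutrophils of Tc1 had 0 UMIs in 69 barcodes.

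Ordered by level, the Tc9 gates ran from Foxp3 through T cells without Cd4 or Cd8 to other CD4 and CD8 cells, and the intervals of other CD4 and CD8 overlapped. In Tc1 the order was Foxp3, then other CD4 and T cells without Cd4 or Cd8, whose intervals overlapped. Fibroblasts, macrophages and dendritic cells followed with overlapping intervals, and CD8 cells came below them. CD8 cells thus stood level with other CD4 cells in Tc9 and below macrophages in Tc1.

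**Figure D2:**
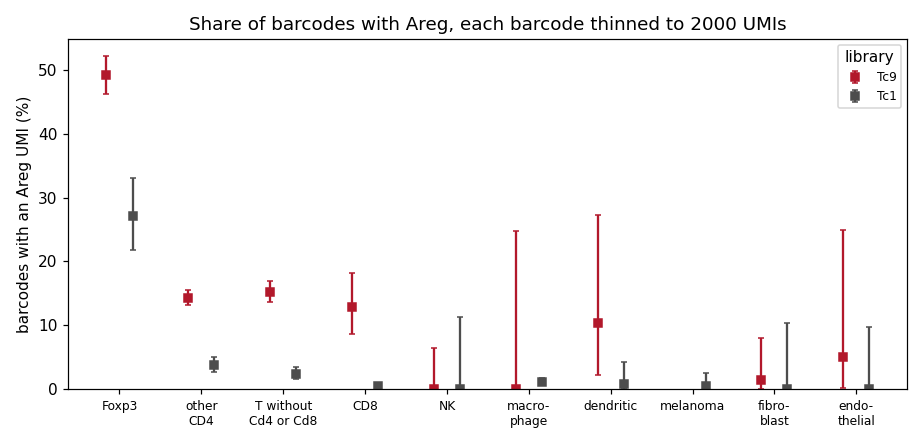
Share of barcodes with an Areg UMI (%) after thinning each barcode to 2000 UMIs, by gate, with Tc9 left of Tc1; bars are 95% Clopper-Pearson intervals, and gates with fewer than 10 thinned barcodes are not drawn. The Foxp3 gate stands at 49.3% in Tc9 and 27.2% in Tc1, and the other CD4 gate at 14.3% and 3.74%.

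Within each library Areg was a transcript of Foxp3 cells before other CD4 cells. The log2 ratio of the Foxp3 gate over the other CD4 gate was 1.97 (1.92 to 2.01) in Tc9 and 2.75 (2.56 to 2.95) in Tc1, or 3.91-fold and 6.73-fold. Thinned shares were 35.0 percentage points higher in Foxp3 cells in Tc9 and 23.4 points higher in Tc1. By this ratio, with 1 CPM added, Areg ranked 148 of 7863 genes in Tc9 and 40 of 8660 in Tc1. It was the only one of the 4 genes measured in these gates and passed upward in both libraries, where 12.2% of genes did in Tc9 and 14.2% in Tc1. Downward, 3.97% passed in Tc9 and 10.5% in Tc1. The Tc1 ratio was 2.03 when gates were assigned on the thinned counts and 3.98 without the top 1% of barcodes.

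Foxp3 itself stood at 502 CPM in the Tc9 Foxp3 gate and 390 CPM in the Tc1 Foxp3 gate, which it defines. The gate included barcodes with a single Foxp3 UMI, 280 in Tc9 and 76 in Tc1, and barcodes with no Cd4 UMI, 447 in Tc9 and 84 in Tc1.

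Areg was unevenly spread over cells. Of the Tc9 Foxp3 cells, 38.8% had no Areg UMI, 9.77% had 1, and 14.4% (161 barcodes) had 20 or more, with a maximum of 236. In Tc1, 59.2% had none, 10.4% had 1, and 3.85% (10 barcodes) had 20 or more, with a maximum of 201. The share with exactly 1 UMI was thus about equal, and the groups differed among the Areg-rich cells. Among other CD4 cells 2.32% of Tc9 barcodes (85) and 0.278% of Tc1 barcodes (3) had 20 or more UMIs. Barcodes with 10 or more Areg UMIs held 83.7% of the Foxp3 gate's Areg in Tc9.

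**Figure D3:**
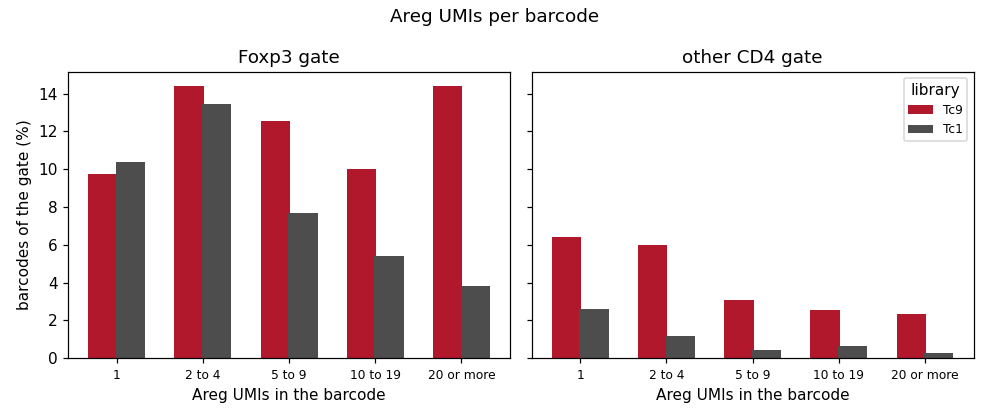
Share of barcodes (%) by the number of Areg UMIs in the barcode, for the Foxp3 gate and the other CD4 gate, with Tc9 left of Tc1; barcodes with no Areg UMI make up the rest. In the Foxp3 gate 14.4% of Tc9 barcodes and 3.85% of Tc1 barcodes held 20 or more UMIs.

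Areg-positive cells were more often positive for Il1rl1, which encodes ST2, the receptor for the alarmin IL-33. In the thinned Foxp3 gate of Tc9, 300 of 485 barcodes with Il1rl1 (61.9%) and 238 of 607 without it (39.2%) held Areg, a difference of 22.6 points (16.6 to 28.5). In Tc1, 18 of 30 barcodes with Il1rl1 (60.0%) and 51 of 224 without it (22.8%) did, a difference of 37.2 points (16.9 to 55.4). Among Il1rl1-positive Foxp3 cells the shares of the 2 libraries lay within each other's intervals, at 61.9% (57.4 to 66.2) in Tc9 and 60.0% (40.6 to 77.3) in Tc1. Among Foxp3 cells without Il1rl1 the intervals did not overlap, at 39.2% (35.3 to 43.2) in Tc9 and 22.8% (17.4 to 28.8) in Tc1. Il1rl1-positive cells made up 44.4% of the Tc9 Foxp3 gate and 11.8% of the Tc1 Foxp3 gate.

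The other T cell gates had the same order, except the CD8 gate of Tc1. In the other CD4 gate 26.9% of barcodes with Il1rl1 and 9.99% without it held Areg in Tc9, against 10.1% (14 of 138) and 2.73% in Tc1. In T cells without Cd4 or Cd8 the shares were 26.9% with and 11.2% without Il1rl1 in Tc9, and 7.29% and 1.87% in Tc1. In the CD8 gate of Tc9 they were 45.5% (10 of 22) with and 9.09% without, and in Tc1 0 of 18 barcodes with Il1rl1 and 0.423% of those without it held Areg.

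**Figure D4:**
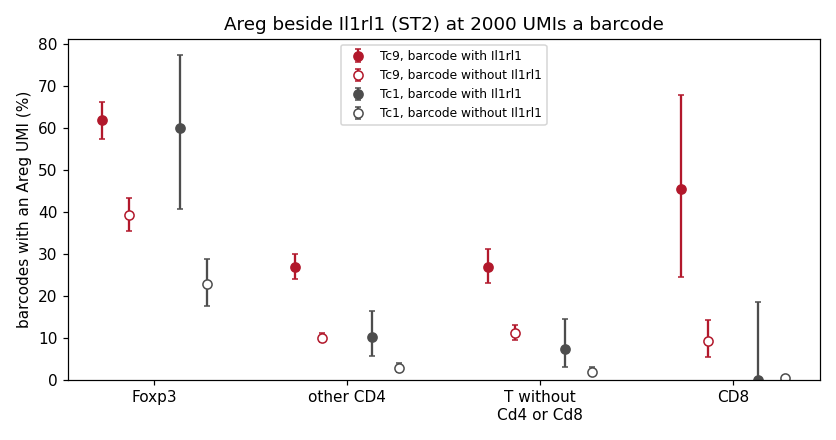
Share of thinned barcodes with an Areg UMI (%), split by whether the barcode also held an Il1rl1 UMI, for 4 T cell gates of each library; bars are 95% Clopper-Pearson intervals. The share is higher with Il1rl1 in each gate but the CD8 gate of Tc1 (0 of 18), as in the Foxp3 gate with 61.9% against 39.2% in Tc9 and 60.0% against 22.8% in Tc1.

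Other partners were weaker or depended on the gate. For Nr4a1, an orphan nuclear receptor induced early after T cell receptor stimulation, the Foxp3 gate of Tc9 had Areg in 56.5% of barcodes with it and 42.5% without, and that of Tc1 in 33.3% and 25.3%, where the interval of the difference included 0. Among other CD4 cells the shares were 19.4% with and 10.2% without Nr4a1 in Tc9, and 6.76% and 2.90% in Tc1. Barcodes with a UMI of the type 2 cytokine genes Il4, Il5 or Il13 held Areg more often in the other CD4 gate, at 30.5% with and 12.4% without in Tc9. In Tc1 these shares were 8.33% and 3.33%, with an interval that included 0. For Foxp3 cells of Tc9 they were 51.5% and 49.2%. For Il18r1, Batf and Fos the interval of the difference included 0 in the Foxp3 and other CD4 gates of both libraries. Thinned cells with Areg and Hbegf together were few: 2 of 14 Hbegf-positive Foxp3 cells of Tc9 held Areg, against 49.7% of the others.

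Receptor sequences allowed a further split that the choice of genes did not use. Among Tc9 Foxp3 cells Areg was found in 10 of 42 thinned barcodes of clonotypes with 3 or more cells (23.8%, 12.1 to 39.5) and in 96 of 214 barcodes of single-cell clonotypes (44.9%, 38.1 to 51.8). In Tc1 it was found in 4 of 29 (13.8%) and 25 of 90 (27.8%), with overlapping intervals. Most Tc9 Foxp3 barcodes are outside this split, since 809 of 1092 thinned ones had no paired receptor. These held Areg in 51.4% (47.9 to 54.9), above both classes. In Tc1, 126 of 254 had no paired receptor, and 28.6% of these held Areg. The clonotypes differed among themselves: at full depth, where 61.2% of the Tc9 Foxp3 gate held Areg, the 3 with the most Foxp3 cells held it in 7 of 11, 3 of 9 and 2 of 3 barcodes. The other CD4 gate did not follow this, with 15.5% in expanded and 10.5% in single clonotypes in Tc9, and 2.89% and 3.02% in Tc1. Cells of a clonotype share their origin and are not independent.

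A TRBV14 and TRBJ1-6 chain was present in both libraries. It was carried by 138 of the 210 CD8 gate barcodes in Tc9, of which 33 held Areg (435 UMIs). In Tc1 it was carried by 39 of the 1944 CD8 gate barcodes, of which 1 held Areg (1 UMI). Of the Tc9 Foxp3 gate, 13 of 25 barcodes with that chain held Areg, and no Tc1 Foxp3 barcode carried it. At full depth the CD8 Areg counts thus differed among cells with the same receptor β chain. Thinned to 2000 UMIs, 14 of 137 such Tc9 CD8 barcodes (10.2%, 5.70 to 16.6) held Areg. In Tc1 it was 0 of 39 (0 to 9.03%), so the intervals overlapped. The thinned Tc9 share was under the 26.6% that evenly spread free Areg would give Tc9 CD8 barcodes. The part of free RNA was not tested, nor whether cells with this chain were transferred cells.

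Genes known to act upstream of Areg in T cells were mostly higher in Tc9 as well. Of 13 listed, 12 were measured in the Foxp3 gate, where 8 were at least 1.5-fold higher and 1 was lower, against 17.7% higher and 24% lower of all measured genes. Their median log2 ratio was 1.10, against -0.04 for all genes. Il1rl1 stood at 376 CPM in Tc9 and 75.0 CPM in Tc1 (log2 ratio 2.32). Il18r1, a chain of the IL-18 receptor, stood at 229 and 70.9 CPM (1.69). Nr4a3, a relative of Nr4a1, stood at 213 CPM in Tc9 and 66.4 CPM in Tc1 (1.68), and Il18rap, the partner chain for IL-18, at 89.9 and 34.3 CPM (1.39). Il18 was the lower one, at 2.26 CPM in Tc9 and 11.3 CPM in Tc1.

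In the other CD4 gate 6 of 12 measured genes of this list were higher and 1 was lower (6.83% and 20.4% of all genes), with a median of 0.46 against -0.15 for all genes. Nr4a3 (log2 ratio 1.43), Nr4a1 (1.28), Il1rl1 (1.25) and Gata3 (1.21), the master regulator of type 2 T cells, led it. In the CD8 gate 8 of 11 were higher and 0 lower, against 15.1% and 25.9% of all genes. The part of the unlike receptor chains of the Tc9 and Tc1 CD8 gates in that count was not tested. For the listed genes Il1rl1, Gata3, Il18r1, Il1rap, Batf, Irf4, Nr4a1 and Crem the Foxp3 gate was also set against the other CD4 gate. Areg had log2 ratios of 1.97 in Tc9 and 2.75 in Tc1 there. Il1rl1 had 0.75 in Tc9 and -0.33 in Tc1, and Crem, a cAMP-responsive transcription factor, had 1.05 and -0.06. Batf, a transcription factor of effector regulatory T cells, had 0.69 and 1.25, and Gata3 had -0.44 and -0.37. In each library Areg had a larger ratio than any of the listed genes named for this comparison.

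The type 2 cytokine gene Il13 was also higher in Tc9. It had 163 UMIs (20.4 CPM) in the Tc9 Foxp3 gate and 0 in the Tc1 Foxp3 gate, at least 15.1-fold higher when the Tc1 gate is set to 3 counts. Among other CD4 cells it stood at 56.9 CPM in Tc9 and 15.4 CPM in Tc1. Il4 stood at 17.9 CPM in Tc9 and 1.36 CPM in Tc1 in the Foxp3 gate, and at 50.1 CPM in Tc9 and 25.7 CPM in Tc1 among other CD4 cells. Il5 was under 10 CPM in both libraries in the Foxp3 gate, so it was not measured there. Among other CD4 cells it was measured and did not pass the size rule in either direction. In the CD8 gate all 3 of Il4, Il5 and Il13 were higher, with Il13 at 438 CPM in Tc9 and 3.23 CPM in Tc1. Of all genes measured there 15.1% were higher. That gate set mostly cells of 1 shared β chain in Tc9 (138 of 210) against mostly others in Tc1 (39 of 1944 with it). The part of this in the cytokine levels was not tested.

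The shedding machinery showed no such gap in the Foxp3 and other CD4 gates. The sheddases Adam17 and Adam10 stood at 50.3 and 70.2 CPM in the Tc9 Foxp3 gate, against 58.3 and 70.9 CPM in the Tc1 Foxp3 gate. Of the 4 measured shedding genes 0 passed the size rule in the Foxp3 gate and 0 in the other CD4 gate, in either direction. Of all measured genes 17.7% were higher and 24% lower in the Foxp3 gate, and 6.83% and 20.4% in the other CD4 gate. The CD8 gate had 2 of 4 higher and 0 lower, against 15.1% and 25.9% of all genes measured there.

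Of the inhibitors of the receptor and its cascade, 3 of 12 measured were higher and 1 lower in the Foxp3 gate, with a median of 0.33. Since 17.7% of all genes were higher there, the count says little about the list. Lrig1, which lowers EGFR family receptors at the membrane, stood at 104 CPM in Tc9 and 22.6 CPM in Tc1 (log2 ratio 2.20). Dusp5, an ERK phosphatase, stood at 682 CPM in Tc9 and 301 CPM in Tc1. Errfi1, an inhibitor of the EGFR kinase, was lower, at 33.8 CPM in Tc9 and 52.9 CPM in Tc1. Since Egfr was at or near 0 in T cells (below), these are levels of genes shared with other receptors' cascades.

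Among 11 adaptor and cascade genes, 3 were higher and 4 lower in the Foxp3 gate, near the 17.7% and 24% of all genes. The adaptor Gab1 stood at 0.752 CPM in Tc9 and 29.8 CPM in Tc1. Of 10 EGFR target genes 0 were higher and 2 lower among 7 measured, also near those shares. One of these, the immediate early gene Ier3, stood at 9.52 CPM in Tc9 and 299 CPM in Tc1. The groups differed most in Gab1 and Ier3 in the gate where Tc1 also carried more macrophage RNA, and the part of that RNA was not tested. In the T cell gates 0 of 8 other EGF family ligands and 0 of 4 receptors reached 10 CPM in either library.

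Hbegf (ENSMUSG00000024486, chr18:36504927-36515805) had its highest levels in stromal gates. In Tc9, though, the Foxp3 gate held 28.6% and the other CD4 gate 25.5% of its UMIs, and fibroblasts 4.25%. The interval of the Tc9 fibroblast level (8.35 to 29.9 CPM) overlapped that of Tc9 Foxp3 cells (7.28 to 11.6 CPM). In fibroblasts it stood at 16.7 CPM in Tc9 (11 UMIs in 5 of 71 barcodes) and 145 CPM in Tc1 (117 UMIs in 12 of 37 barcodes). The log2 ratio was -3.12 (-4.16 to -2.22), and thinned shares were 1.49% in Tc9 and 23.5% in Tc1. Of the 117 UMIs in Tc1, 104 came from 4 barcodes. Without barcodes that held a UMI of the myeloid gene Lyz2 the ratio was -1.63, and with every gate limit doubled it was -2.04.

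Endothelial barcodes had 5 Hbegf UMIs (36.3 CPM) in Tc9 and 69 UMIs (88.4 CPM) in Tc1, a log2 ratio of -1.29 whose interval (-2.95 to 0.01) included 0. Neutrophils of Tc1 had 11 UMIs (45.9 CPM). In these gates Tc1 cells were deeper, with a fibroblast median of 7073 UMIs in Tc9 and 21541 UMIs in Tc1.

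In T cells Hbegf stayed under 10 CPM. Foxp3 cells stood at 9.27 CPM in Tc9 (74 UMIs) and 3.61 CPM in Tc1 (8 UMIs), a log2 ratio of 1.36 (0.31 to 2.62), and thinned shares of 1.28% and 0.787%. The interval of the share difference included 0 (0.49 points, -1.61 to 1.60). One Tc9 barcode held 17 of the 74 UMIs, and the ratio was 0.49 without the top 1% of barcodes and 0.55 without Lyz2-positive barcodes. When expected free RNA was subtracted it was 3.17, since little of the Tc1 level was left. Other CD4 cells held 66 Hbegf UMIs in 3668 barcodes in Tc9 and 14 UMIs in 1081 barcodes in Tc1, a log2 ratio of 0.06 (-0.79 to 1.01). CD8 cells stood at 3.38 CPM in Tc9 and 2.75 CPM in Tc1. Within Tc9 the Foxp3 gate was above the other CD4 gate (log2 ratio 1.63, 1.13 to 2.13), and within Tc1 the interval included 0 (0.33, -1.13 to 1.68). Macrophages had 1 UMI in Tc9 and 5.53 CPM (81 UMIs) in Tc1. Melanoma barcodes of Tc1 stood at 6.29 CPM, with Hbegf in 25.1% of barcodes at full depth and 0.909% at 2000 UMIs.

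Gated Ereg UMIs lay in fibroblasts, except 1 in Tc9 T cells without Cd4 or Cd8. Fibroblasts held 3 UMIs in 3 of 71 barcodes in Tc9 (4.56 CPM) and 47 UMIs in 9 of 37 barcodes in Tc1 (58.3 CPM), a log2 ratio of -3.67 (-6.00 to -2.04). These were 75% of the library's Ereg UMIs in Tc9 and 72.3% in Tc1, and the other 18 UMIs of Tc1 lay in 9 ungated barcodes. The Foxp3, other CD4 and CD8 gates held 0 Ereg UMIs in both libraries, which allows up to 0.376 CPM in the Tc9 Foxp3 gate and 1.36 CPM in the Tc1 Foxp3 gate at 3 counts. The 2130 Tc1 macrophages also held 0, allowing up to 0.205 CPM.

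Egfr, the receptor, was a fibroblast transcript in both libraries. It stood at 357 CPM (313 to 406) in Tc9, in 55 of 71 barcodes (77.5%), and at 243 CPM (210 to 280) in Tc1, in 28 of 37 barcodes (75.7%). At 2000 UMIs a barcode 50.7% of Tc9 and 47.1% of Tc1 fibroblasts were positive. The log2 ratio was 0.56 (0.28 to 0.84), under the 1.5-fold rule, in a gate where the median gene stood at 0.24. Fibroblasts held 85.8% of Egfr UMIs of Tc9 and 69.0% of those of Tc1. In fibroblasts all 4 genes were measured, and 3 (Areg, Hbegf and Ereg) were at least 1.5-fold lower in Tc9 and 0 higher, against 20.1% lower and 34.9% higher of all measured genes. For Areg this rested on 9 UMIs in Tc9 and 18 in Tc1 (log2 ratio -0.71, -2.04 to 0.52), an interval that included 0. Thinned, 1 of 67 Tc9 and 0 of 34 Tc1 fibroblasts held Areg, and the free Areg expected was 54.0 CPM in Tc9 and 1.04 CPM in Tc1, so no expression is read from it.

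No T cell gate held more than 3 Egfr UMIs. The 267 melanoma barcodes held 0, which allows up to 0.201 CPM at 3 counts, and 0 UMIs were found in the Tc1 endothelial gate. Barcodes with Egfr and a ligand together were found among fibroblasts, at full depth. Egfr and Hbegf were together in 4 Tc9 and 9 Tc1 barcodes, Egfr and Ereg in 2 and 8, and Egfr and Areg in 5 and 3. Most gated Areg UMIs thus lay in T cells and most gated Egfr UMIs in fibroblasts.

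**Figure D5:**
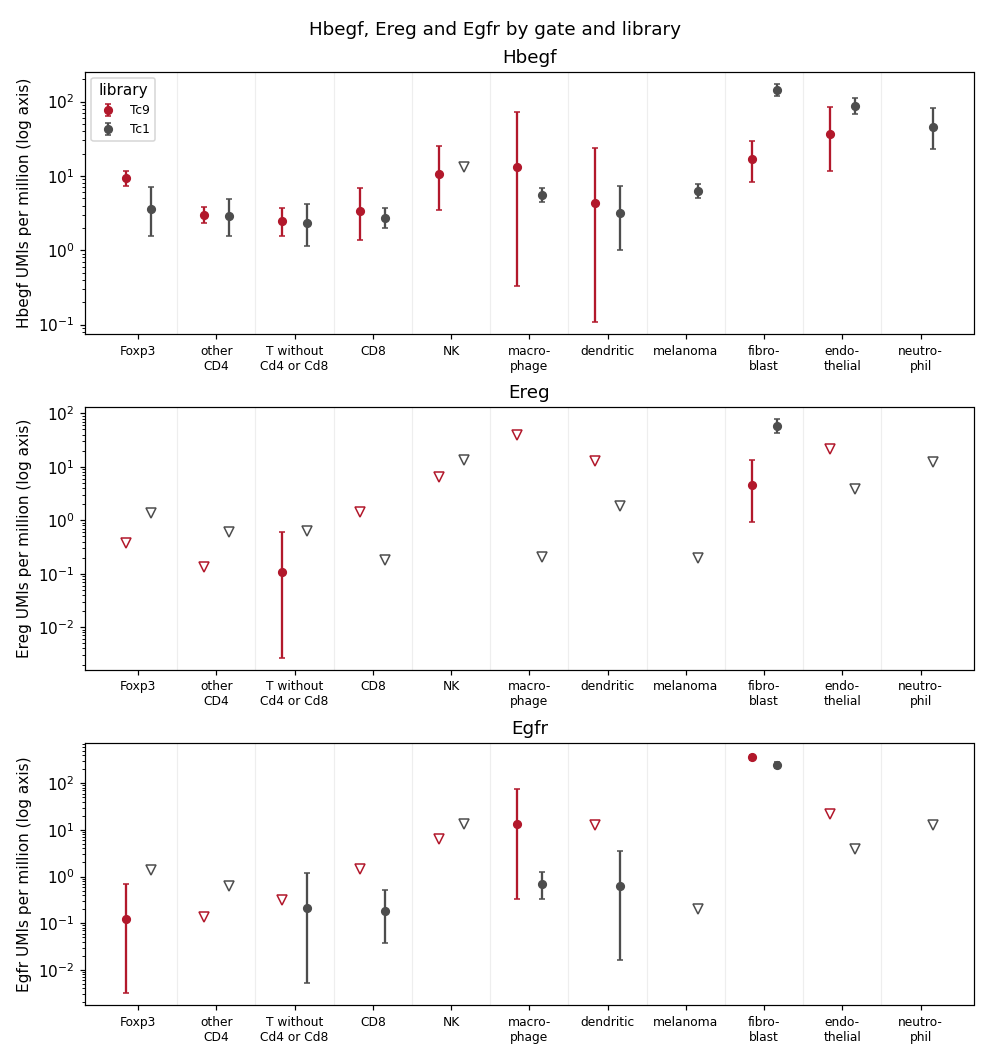
Levels of Hbegf, Ereg and Egfr (CPM, log axes) by gate, with Tc9 left of Tc1; bars are 95% Poisson intervals and hollow triangles mark the level of 3 counts where no UMI was found. Fibroblasts hold the highest Egfr and Ereg levels, with Egfr at 357 CPM in Tc9 and 243 CPM in Tc1, and Hbegf in fibroblasts stands at 16.7 CPM in Tc9 and 145 CPM in Tc1.

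EGFR target genes in fibroblasts did not move one way. Of 10, all measured, 3 were higher in Tc9 and 4 lower, against 34.9% higher and 20.1% lower of all genes measured in that gate. With 10 genes these counts say little about the list. Egr1 stood at 1769 CPM in Tc9 and 707 CPM in Tc1, while Ier3 stood at 86.7 and 539 CPM, and Fosl1 at 13.7 and 50.8 CPM. Among feedback inhibitors Spry2 stood at 102 CPM in Tc9 and 18.6 CPM in Tc1, and Dusp4 at 12.2 and 59.5 CPM. Il33, the ligand of ST2, was also found in fibroblasts, at 213 CPM in Tc9 and 334 CPM in Tc1. Barcodes with 10 or more Il33 UMIs held 57 of 140 UMIs in Tc9 (3 barcodes) and 206 of 269 in Tc1 (4 barcodes). Thinned, the order was the other way, with Il33 in 22 of 67 Tc9 fibroblasts (32.8%, 21.8 to 45.4) and 7 of 34 Tc1 fibroblasts (20.6%, 8.70 to 37.9). These intervals overlapped, so no direction between the groups is read from Il33. Nrg1, a ligand of the relatives ERBB3 and ERBB4, stood at 22.8 CPM in Tc9 and 21.1 CPM in Tc1 fibroblasts, and Erbb3 at 21.1 CPM in Tc1 melanoma barcodes. Nrg1 was not confined to fibroblasts, with 143 UMIs in all of Tc9 and 1010 in all of Tc1. In Tc9 it had 8 UMIs in macrophages (106 CPM) and 50 in 1 dendritic barcode (213 CPM over that gate).

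The genes most like Areg over 14 gates and libraries, by Pearson correlation of log2(CPM + 1) among 10016 genes in gates of at least 50 barcodes, were Fbxo33, Icos (a T cell costimulatory receptor), Dctn4, Il1rl1 and Nrip1, at 0.92 to 0.91. The Egfr pattern was closest to Medag, Mfap5, Mmp3, Shc2 and Ntn4 (0.998 to 0.996), and the Hbegf pattern to Spidr, Mapk6, Ndst1, Rnf11 and Inpp5a (0.90 to 0.87). For Ereg the closest genes were Eln, Tril, Pi15, Cxcl13 and Agtr1a, a likeness that rests on the fibroblast UMIs of the Tc9 library, since the Tc1 fibroblast gate was under 50 barcodes. The Egfr likeness also rests on Tc9 fibroblasts (357 CPM), since Egfr was at 0.683 CPM or less at every other point. Other genes found mainly in that gate would score high too. These points share libraries and depth, and the correlations are descriptions.

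Neighbours of Areg on chromosome 5 did not share its abundance. On one side, Ereg had 4 UMIs in Tc9 and 65 in Tc1, Epgn 2 and 2, and the metabolic gene Mthfd2l 502 and 912. On the other side Btc had 10 UMIs in Tc9 and 13 in Tc1. Ereg, Epgn and Btc encode EGF receptor ligands too, and of these 4 neighbouring ligand genes Areg had the most UMIs in both libraries.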

How the data were processed

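Samples were tumour-infiltrating cells sorted as CD4 T cells and captured with the 10x 5′ v2 chemistry. The RNA values are counts of UMIs per gene and barcode, deposited by the authors as filtered matrices; the submitters' processing notes name Cell Ranger 7.0.0, mm10 and GRCm38. The receptor contigs carry counts of UMIs as deposited.

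The filters on barcodes were a minimum of 500 detected genes and a mitochondrial share of UMIs of 10% or less. Gates used marker UMIs per 10000 UMIs of a barcode: T cell gates needed at least 3 UMIs and 8 per 10000 of the T markers. In them macrophage, melanoma, fibroblast, neutrophil, B cell and mast cell markers stayed under 16 per 10000. The class II genes H2-Aa, H2-Ab1 and Cd74 stayed under 64 per 10000. NK, dendritic and endothelial lists had no ceiling in the T cell gates. The Foxp3 gate needed 1 Foxp3 UMI, the other CD4 gate 1 Cd4 UMI and no Foxp3, and the CD8 gate 2 UMIs of Cd8a or Cd8b1. Gates for other types needed their own markers, from 2 per 10000 (NK) to 64 per 10000 (fibroblast, neutrophil). Limits were set on marker distributions, not on the 4 genes. No doublet caller was run, and barcodes that met the rules of no gate or of 2 gates stayed ungated.

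Levels are summed UMIs over the summed total, in CPM, with exact Poisson intervals. Ratios have exact conditional intervals, shares Clopper-Pearson intervals and differences of shares Newcombe intervals, all at 95% and for counting error only. A gene was measured at 10 CPM in 1 of the libraries, and called higher or lower at 1.5-fold. With 1 library per group no test was run. Expected free RNA was estimated per gate from markers of other cell types. Genes named from each list are the measured ones with the largest ratios, up to 4 a gate, and any other list gene in the text was picked with its values in view. The 4 genes, the lists and the markers were chosen with earlier results of these data known, and the gates assigned on thinned counts, the removal of Lyz2-positive barcodes, the removal of the top 1% and the gates without a ceiling were added after seeing the data. Scripts were tested on simulated counts. Python 3.11.15, numpy 2.4.6, scipy 1.17.1, pandas 2.3.3, scanpy 1.11.5 and matplotlib 3.10.9 were used.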

Additional observations from a re-analysis of the deposited data

Results flagged for a closer look

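The log2 ratio of Hbegf had opposite signs in 2 gates. The Tc9 over Tc1 value was 1.36 in the Foxp3 gate (74 and 8 UMIs) and -3.12 in fibroblasts (11 and 117 UMIs). The difference between these ratios was not tested. In the Foxp3 gate Hbegf was under 10 CPM in both libraries, so it did not count as measured, and the ratio was 0.49 without the top 1% of barcodes.

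Barcodes that no gate took held Areg in both libraries, 4244 UMIs in Tc9 and 1924 UMIs in Tc1, outside the comparisons between gates. They were 17.5% of the Areg UMIs of Tc9 and 51.6% of those of Tc1. In Tc9 most lay in 664 barcodes with T markers but conflicting or incomplete Cd4, Cd8 and Foxp3 (640 CPM), a class that stood at 54.6 CPM in 653 Tc1 barcodes. In Tc1 the largest part, 938 UMIs, lay in 2151 barcodes with neither T markers nor macrophage markers over the limits (57.5 CPM), a class with 290 UMIs in Tc9. One of these Tc1 barcodes held 228 of the 938 UMIs. The class was not free of myeloid RNA, since 81.9% of its Tc1 barcodes held Lyz2. Its Lyz2 level was 5271 CPM, against 6660 CPM in the Tc1 macrophage gate.

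A few ungated barcodes with at least 5 UMIs each of the epithelial genes Epcam, Krt8 and Krt18, a rule set after their values were seen, held 46 Areg UMIs in 4 barcodes in Tc9 and 270 UMIs in 3 barcodes in Tc1.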

How the results depend on the processing

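With 1 library per group, no result has a replicate to leave out, and intervals cover counting error only. No paired analysis was possible because each group has 1 RNA library. Alternatives were run for Areg in the Foxp3, other CD4 and CD8 gates and for Hbegf in the Foxp3, other CD4 and fibroblast gates. Ereg and Egfr were rerun in fibroblasts only. No ratio, level or share difference among these changed sign, except the Hbegf ratio in the other CD4 gate, which was near 0 (lowest -0.53, highest 1.12). Ratios of the 4 genes between the groups in other gates were not rerun. Values outside the counting interval of the reported one were these. Areg in the Foxp3 gate (1.53) was 1.74 for barcodes in a cluster of their own gate, 1.42 averaged over barcodes, 1.92 with gates on thinned counts, 1.89 without Lyz2-positive barcodes, 1.80 without the top 1% and 2.03 with no ceiling on other markers. Areg in the other CD4 gate (2.31) was 1.75 with doubled limits, 1.97 after free RNA was subtracted, 3.37 without the top 1% and 2.62 with no ceiling. The Foxp3 over other CD4 ratio in Tc9 (1.97) was 2.22 with doubled limits, 2.15 by cluster, 2.43 less free RNA, 1.84 scaled by the median ratio, 2.14 averaged over barcodes, 1.77 on thinned counts and 2.41 without the top 1%. In Tc1 (2.75) it was 2.37 with doubled limits, 2.96 averaged over barcodes, 2.03 on thinned counts, 2.31 without Lyz2-positive barcodes, 3.98 without the top 1% and 2.55 with no ceiling. Areg in the CD8 gate (6.32) was 5.32 with doubled limits, 7.82 by cluster, 6.90 averaged over barcodes, 5.54 on thinned counts, 7.48 without Lyz2-positive barcodes and 5.60 with no ceiling; less free RNA or without the top 1% no Tc1 level was left to give a ratio. Hbegf in the Foxp3 gate (1.36) was 3.17 less free RNA and, inside its wide interval, 0.49 without the top 1% and 0.55 without Lyz2-positive barcodes. Hbegf in the other CD4 gate (0.06) was 1.12 less free RNA, and in fibroblasts (-3.12) -2.04 with doubled limits and -1.63 without Lyz2-positive barcodes. Egfr in Tc1 fibroblasts was 282 CPM with doubled limits. The Areg share difference in the other CD4 gate was 8.64 points at 1000 UMIs, 15.2 unthinned and 12.7 with gates on thinned counts; in the Foxp3 gate it ranged from 17.1 to 26.5 points under 12 alternatives. The CD8 share difference was 7.26 points at 1000 UMIs and 22.4 unthinned. The Ereg ratio in fibroblasts ranged from -3.91 to -3.43. Genes called higher in the Foxp3 gate (1513) were 5760 with no minimum level, 836 at 50 CPM and 534 at 2-fold, and those lower (2059) were 5286, 785 and 993. In the other CD4 gate genes higher (564) were 4344, 359 and 145, and 926 when scaled by the median ratio, and those lower (1684) were 6535, 485 and 737. For these moves the cause was not tested, beyond what each setting does by construction.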

Other observations

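The keratin-positive barcodes had the highest Areg level of any class in Tc1, at 4850 CPM over 3 barcodes, and 1127 CPM over 4 barcodes in Tc9. They were picked after their values were seen, and no cell type name is given. The 4 Tc9 barcodes held 37, 4, 3 and 2 Areg UMIs, and the 3 Tc1 barcodes 228, 24 and 18, so 1 barcode carries most of the level in each library. The 3 Tc1 barcodes alone held 7.23% of all Areg UMIs of that library. The same barcodes held Prlr, the prolactin receptor gene, at 15 to 117 UMIs in Tc9 and 36 to 90 UMIs in Tc1. Egfr and Ereg were at 0 in all 7, and Hbegf had 0 UMIs in Tc9 and 1 in Tc1.

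Areg UMIs of the shared TRBV14 and TRBJ1-6 chain were also found outside the gates. In Tc9, 68 of 152 ungated barcodes with that chain held Areg (988 UMIs), and in Tc1 1 of 16 did (2 UMIs).

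One ungated Tc9 barcode held 29 of the 37 Egfr UMIs found outside the gates of that library.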
